A study of Equus caballus with 2 samples.

Results

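The genes described here are the 10 genes of the insulin-like growth factor (IGF) axis that were looked up by symbol in the expression matrices, namely the ligands IGF1 and IGF2, the receptors IGF1R and IGF2R, and the binding proteins IGFBP2 to IGFBP7. All 10 were found among the 21426 genes listed. They were measured by single cell RNA sequencing in cultured fibroblasts isolated from the endometrium (the lining of the uterus) of mares, with 1 droplet library per condition and the cells of 4 mares pooled into each library. Both groups were cultured in a serum-free medium with albumin for 24 h: the control group with no further supplement, and the TGF-β1 group with 10 ng/ml human recombinant transforming growth factor beta 1. Cells of the study that were exposed to MFGE8 were not analysed here.

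IGF1 and IGF2 are secreted growth factors that act through the tyrosine kinase receptor IGF1R, while IGF2R, the mannose 6-phosphate receptor, takes up IGF2 and delivers it to lysosomes. IGF-binding proteins hold the ligands outside the cell and thereby limit or prolong their action, and proteases that cleave the binding proteins release the ligands again. In the endometrium, stromal cells secrete ligands and binding proteins, and the uterine IGF system is known for its part in growth of the lining and in early pregnancy.

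After the removal of barcodes with under 20000 unique molecular identifiers (UMIs, which count captured transcripts), under 3500 genes or at least 4% mitochondrial UMIs, 3865 control cells and 4513 TGF-β1 cells remained. They held 210497250 and 219731144 UMIs, and the median cell had 50313 and 43142. Of the kept barcodes, 2 occurred in both libraries. All 9 fibroblast markers looked for were found, and 8 of them were present in most cells of both libraries, the exception being PDGFRA after TGF-β1 (25.6% of cells). EPCAM, CDH1 and each of the 5 endothelial markers were present in under 1% of cells in either library. Of the 6 immune markers, 4 including PTPRC were under 1% as well, whereas CD68 (55.5% in control, 56.7% after TGF-β1) and CD14 (24.4%, 18.2%) were common. Of the 5 smooth muscle or pericyte markers, DES (98.3% and 98.4%), RGS5 (62.4% and 68.2%) and MYH11 (37.1% and 28.0%) were widespread, and MCAM (8.87% and 3.24%) and CSPG4 (2.30% and 2.06%) were in few cells. KRT7, an epithelial keratin gene, was in 23.1% and 11.8% of cells. Another keratin gene, KRT8, stood at 114 UMIs per 1000000 UMIs of the library (CPM) in control and 4.48 CPM after TGF-β1, and the summed level of the 6 epithelial markers found was 134 and 12.3 CPM. Because each condition was 1 library, library and condition cannot be told apart, no test was made, and the 95% intervals given below cover counting error only.

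The binding protein genes moved in different directions. IGFBP3 was far higher after TGF-β1, IGFBP5 and IGFBP7 were higher, IGFBP4 was several times lower, and IGFBP2 and IGFBP6 were lower. The ligand IGF2 was also several times lower, whereas both receptor genes stayed within 1.5-fold. Of the 10 genes, 9 had a mean of at least 10 CPM over both libraries, and of these 4 were higher and 5 lower after TGF-β1, where 51.4% of all 7658 genes at this level were higher and 48.6% lower. A difference of more than 2-fold was found for 3 of the 9, compared with 4.43% of all genes. Of the 3, 1 was higher and 2 were lower, against 2.3% and 2.13% of all genes. A difference of more than 1.5-fold was found for 5 of the 9, against 12.7%. IGFBP3 and IGF2 passed the minimum of 10 CPM only through the library in which they were high, so their place among the 9 depends on the difference that is counted. On the log2 scale, these 9 genes had a median ratio of -0.34, while the median over all genes was 0.0082.

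**Figure D1:**
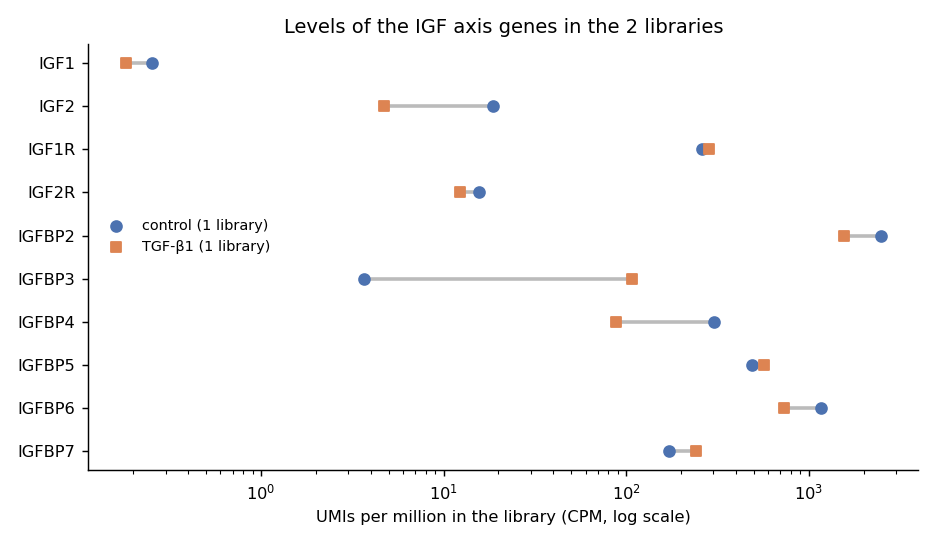
Level of each IGF axis gene in the control library (blue circles) and the TGF-β1 library (orange squares), in CPM on a log scale, with 1 library per condition. IGFBP3 moves from 3.69 to 108 CPM, IGFBP4 and IGF2 move in the opposite direction, and the 2 receptor genes lie close together.

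Of the ligands, IGF1, the main mediator of growth hormone in the body, was barely detected. Kept cells held 53 IGF1 UMIs in control and 40 after TGF-β1, which gives a log2 ratio of -0.47 with an interval from -1.10 to 0.15, so that no difference was detectable at this depth. A single control cell carried 16 of the 53 UMIs, and without that cell, left out after its values were seen, the ratio was 0.05 (-0.63 to 0.74). IGF1 was found in 33 control cells, and apart from that cell none held more than 2 UMIs.

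IGF2, a growth factor best known for its role in the fetus and placenta, was present at 18.7 CPM in control and 4.73 CPM after TGF-β1. It was 3.95-fold lower, with a log2 ratio of -1.98 (-2.08 to -1.88), and 25 of the 7658 genes had a lower ratio. IGF2 was among these genes only through its control level, so its rank depends on the difference that is ranked. To compare cells at equal depth, 20000 UMIs were drawn at random from each cell (thinning). IGF2 was then present in 16.1% of control cells (15.0 to 17.3%) and 7.27% of TGF-β1 cells (6.53 to 8.06%). The control transcripts were unevenly spread, with a variance 4.01 times the mean, compared with 1.69 times after TGF-β1. The 10% of control cells with the most IGF2 held 83.0% of its UMIs, a share that is high in part because few cells held any. The highest control cell had 21 of 20000.

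IGF1R, the signalling receptor for both ligands, was found at 262 CPM in control and 286 CPM after TGF-β1 (log2 ratio 0.13, 0.11 to 0.14), and it was present in 93.4% and 95.3% of thinned cells. The uptake receptor gene IGF2R was less often detected, at 15.6 and 12.3 CPM and in 25.7% and 20.1% of thinned cells, with a log2 ratio of -0.34 (-0.42 to -0.27). Its UMIs were spread among cells almost as in random sampling, with a variance 1.12 times the mean in control and 1.15 times the mean after TGF-β1. The median of this quotient over genes was 1.15 and 1.14.

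IGFBP3, which encodes the main carrier of IGFs in blood, stood at 3.69 CPM in control, from 776 UMIs, and at 108 CPM after TGF-β1, from 23767 UMIs. Its level was 29.3-fold higher, with a log2 ratio of 4.87 (4.77 to 4.98), which was the highest of the 7658 genes. IGFBP3 was among these genes only through its level after TGF-β1, so its rank depends on the difference that is ranked. The share of thinned cells with an IGFBP3 UMI was 5.10% (4.42 to 5.84%) in control and 39.3% (37.9 to 40.8%) after TGF-β1. Without thinning, the shares were 12.3% and 50.8%.

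The additional IGFBP3 transcripts were concentrated in a minority of TGF-β1 cells. The mean was 2.11 UMIs per thinned cell, and if cells had differed by sampling alone, a Poisson distribution with this mean would have given 87.9% of cells with a UMI, against the 39.3% found. Its variance was 14.3 times the mean. Cells with at least 10 UMIs made up 6.29% of the TGF-β1 library and held 55.3% of its IGFBP3 UMIs, whereas 1 of 3865 control cells reached this level. The 10% of cells with the most IGFBP3 held 68.6% of the UMIs.

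**Figure D2:**
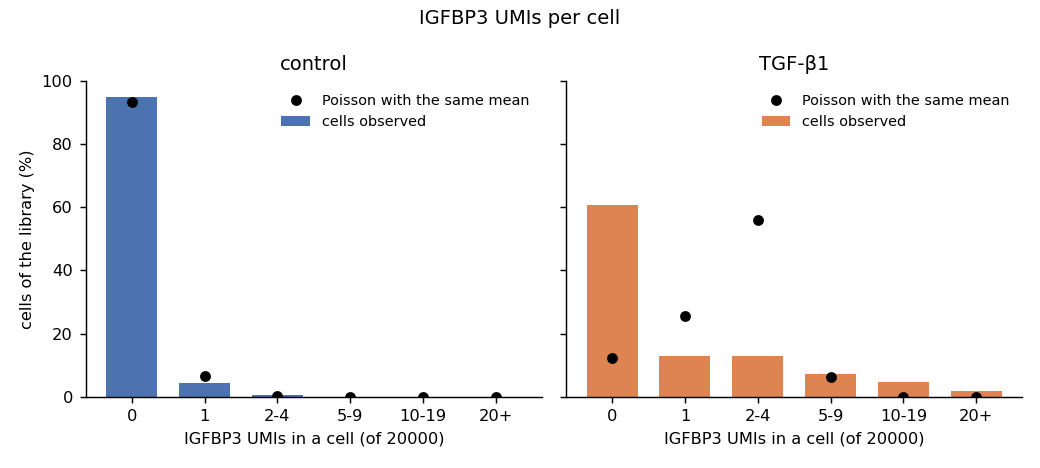
Share of cells of each library (vertical axis, %) by the number of IGFBP3 UMIs in the cell after thinning to 20000 UMIs (horizontal axis), for control (left) and TGF-β1 (right). Bars are observed shares, and black points are the shares under a Poisson distribution of the same mean: after TGF-β1, 60.7% of cells held none, where the Poisson distribution gives 12.1%, and 1.71% held at least 20.

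The level of IGFBP3 varied little with sequencing depth. When TGF-β1 cells were divided by UMI total into 4 groups, IGFBP3 was at 96.3, 108, 112 and 110 CPM from the shallowest to the deepest group. No cell type that should lack these genes was present to measure free RNA. A background equal in all TGF-β1 cells, of 0.50 IGFBP3 UMIs per thinned cell, would give 39.3% of the library's cells a UMI. Among the 6 groups of similar cells (clusters) compared below, however, the share ran from 13.3% in cluster 3 to 56.6% in cluster 5. The part of a background in the shares and in the co-detection of IGFBP3 was not tested.

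IGFBP4, an inhibitor of IGF action that is cleaved by the metalloprotease PAPPA, differed the most of the remaining binding proteins. It was at 302 CPM in control and 88.3 CPM after TGF-β1, 3.42-fold lower, with a log2 ratio of -1.77 (-1.80 to -1.75), and 32 of the 7658 genes had a lower ratio. Nearly all control cells held it (96.8% of thinned cells, median 5 UMIs), compared with 73.0% of TGF-β1 cells (median 1 UMI). In contrast to IGFBP3, its UMIs were spread over many cells, and the 10% of TGF-β1 cells with the most IGFBP4 held 33.0% of them.

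IGFBP2 and IGFBP6 were lower by a similar amount. IGFBP2, a binding protein with a cell-attachment motif, was at 2484 CPM in control and 1569 CPM after TGF-β1, with a log2 ratio of -0.66 (-0.67 to -0.66). IGFBP6, which binds IGF2 in preference to IGF1, was at 1176 and 733 CPM, with a log2 ratio of -0.68 (-0.69 to -0.67). Both remained in most cells after TGF-β1, IGFBP2 in 95.9% and IGFBP6 in 99.9% of thinned cells. Of all genes at this level, 406 had a lower ratio than IGFBP2 and 383 a lower ratio than IGFBP6.

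IGFBP5, which binds to extracellular matrix, was at 488 CPM in control and 570 CPM after TGF-β1 (log2 ratio 0.22, 0.21 to 0.24). More cells held it, 79.7% of control and 93.6% of TGF-β1 thinned cells, and the transcripts were more evenly spread: the 10% of cells with the most IGFBP5 held 46.2% of its UMIs in control and 33.5% after TGF-β1. IGFBP7, a related secreted protein with low affinity for IGFs, was at 172 and 243 CPM, a log2 ratio of 0.50 (0.48 to 0.51), and was held by 87.2% and 93.2% of thinned cells.

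**Figure D3:**
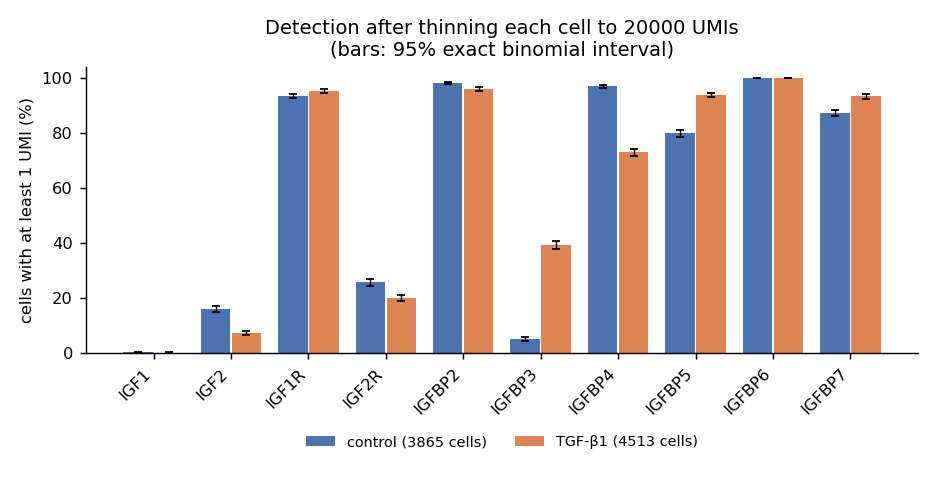
Share of cells with at least 1 UMI of each gene (vertical axis, %) after thinning to 20000 UMIs, in 3865 control cells (blue) and 4513 TGF-β1 cells (orange). Error bars are 95% exact binomial intervals of counting error. IGFBP3 goes from 5.10% to 39.3%, IGFBP4 from 96.8% to 73.0% and IGF2 from 16.1% to 7.27%.

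Summed over the 6 binding proteins, the level was 4625 CPM in control and 3311 CPM after TGF-β1 (log2 ratio -0.48, -0.49 to -0.48). The sum was thus lower despite the higher IGFBP3. IGFBP3 made up 0.0797% of the binding protein UMIs in control and 3.27% after TGF-β1, while IGFBP4 made up 6.53% and 2.67%. Cells in which all 6 binding proteins were detected after thinning were 3.05% of control (2.53 to 3.65%) and 23.1% of TGF-β1 cells (21.8 to 24.3%). These shares cannot exceed those of IGFBP3, 5.10% and 39.3%, and so largely follow its detection. The median cell held 5 of the 6 in both libraries.

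To compare groups of similar cells, the cells of both libraries were clustered together without use of the IGF axis genes. Of the 7 clusters obtained, 6 had at least 50 cells of each library. Cluster 5, with 129 control and 152 TGF-β1 cells, was cycling-like, since all 9 cycling markers found were more than 2-fold higher there than in the other cells. The other clusters were left unnamed, and mares were not assigned to cells, so that differences between clusters and between mares cannot be told apart.

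The direction of most IGF axis genes was shared by all 6 clusters. IGFBP3 was higher after TGF-β1 in each, with log2 ratios from 3.61 in cluster 3 to 5.91 in cluster 4. IGFBP4 was more than 2-fold lower in each (-1.87 to -1.61), as was IGF2 (-2.25 to -1.30), whereas of all genes at 10 CPM or more, 4.99%, 4.82%, 4.74%, 3.61%, 5.81% and 4.24% differed by more than 2-fold in clusters 0 to 5. The mean of IGF2 was itself under 10 CPM in clusters 0, 1, 2 and 5, and that of IGFBP3 in cluster 3. They were thus not among the genes counted there. IGFBP2, IGFBP6 and IGF2R were lower and IGFBP7 higher in all 6, although for IGF2R in cluster 5 the interval included 0 (-0.23, -0.60 to 0.14).

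**Figure D4:**
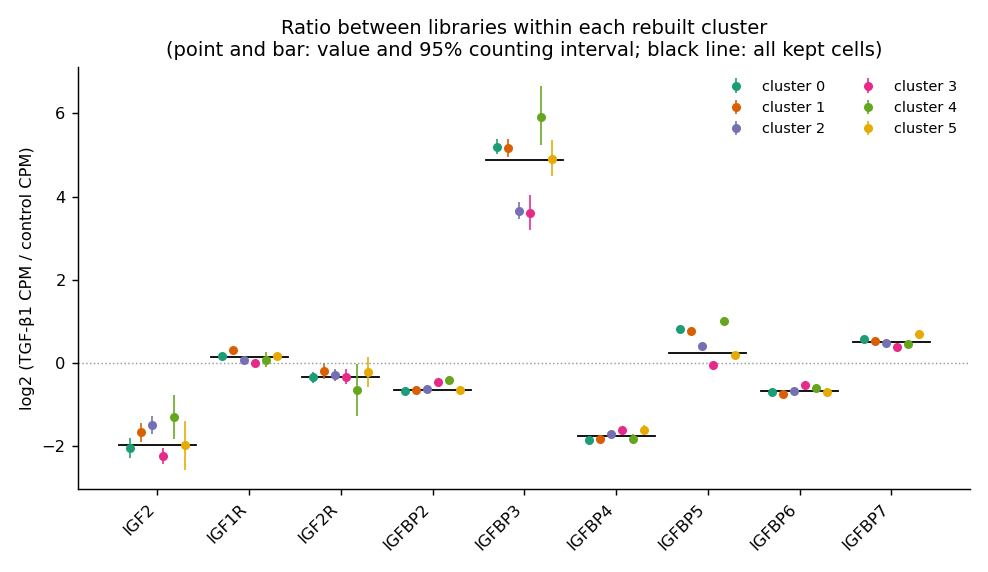
Log2 of the TGF-β1 CPM over the control CPM (vertical axis) for each gene within the 6 clusters with at least 50 cells of each library (coloured points, with 95% counting intervals) and over all kept cells (black lines). IGF1 is left out for its low counts. IGFBP3 lies above 3 in every cluster, IGFBP4 and IGF2 lie below -1, and IGFBP5 runs from -0.06 in cluster 3 to 1.01 in cluster 4.

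Cluster 3, with 744 control and 625 TGF-β1 cells and SPP1, MATK, KRT7 and KRT8 among its leading genes, stood apart. IGFBP3 had its lowest level there in both libraries among the 6 clusters, 1.27 CPM in control and 15.5 CPM after TGF-β1, where 13.3% of thinned cells held it. In the other 5 clusters, between 30.7% and 56.6% of TGF-β1 cells held IGFBP3. IGF2, IGFBP2 and IGFBP5 were at their highest control levels in cluster 3, at 37.8, 3658 and 1156 CPM.

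The IGFBP5 ratio over all cells also moved with cluster 3. Its IGFBP5 level was 1156 CPM in control and 1106 CPM after TGF-β1 (log2 ratio -0.06, -0.08 to -0.04), while the other 5 clusters were higher after TGF-β1 by 0.18 to 1.01. Cluster 3 made up 19.2% of control and 13.8% of TGF-β1 cells. With the same cluster weights in each library, the IGFBP5 log2 ratio was 0.37 in place of 0.22, and with cluster 3 left out of both libraries, chosen after its values were seen, it was 0.61. The ratios of IGFBP3, IGFBP4 and IGF2 were then 4.84, -1.79 and -1.71, and IGF2 fell under the minimum mean of 10 CPM.

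The genes were also compared between cells with and without a KRT8 UMI after thinning, which were 982 and 2883 control cells and 146 and 4367 TGF-β1 cells. The mean of IGFBP3 was 0.046 UMIs with KRT8 and 0.077 without it in control, and 1.90 and 2.12 after TGF-β1. For IGF2 the control means were 0.47 (0.43 to 0.52) with KRT8 and 0.32 (0.30 to 0.34) without it. After TGF-β1 they were 0.068 (0.033 to 0.13, from 10 UMIs) and 0.098 (0.089 to 0.11), which did not differ beyond counting error. The part of KRT8-positive cells in the ratios was not tested.

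IGF1R varied widely among the 6 clusters. It was lowest in cluster 4 (67.1 CPM in control and 70.3 CPM after TGF-β1) and highest in cluster 2 (336 and 353 CPM). Its difference between libraries was small in each, with log2 ratios from -0.02 in cluster 3 to 0.31 in cluster 1.

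Within cells, the IGF axis genes were only weakly related. Over the 36 pairs of the 9 genes without IGF1, Pearson's r of the log-transformed thinned counts ran from -0.28 (IGFBP6 with IGF1R, control) to 0.22 (IGFBP2 with IGFBP7, control), and it reached a size of 0.2 for 3 pairs. These values describe 3865 and 4513 cells that share a library and its depth, and many of the counts were 0 or 1.

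IGFBP3 and IGF2 were found together less often than their separate shares would give. In the TGF-β1 library, 95 thinned cells held both, and 129 would if the genes were independent, a quotient of 0.74 (0.60 to 0.90). In control, 23 cells held both against 31.8, a quotient of 0.72 (0.46 to 1.09) whose interval includes 1. A second random thinning gave 0.48 (0.27 to 0.80) in control, an interval that excludes 1, and 0.73 (0.59 to 0.90) after TGF-β1, so the reading for control changed with the random draw. With the expected number computed within clusters, a comparison added after seeing the data, the quotient was 0.80 (0.64 to 0.97) after TGF-β1 and 0.79 (0.50 to 1.18) in control. These intervals take no account of the fixed number of cells with each gene, and are too wide where a gene is in most cells. There the quotient also cannot move far from 1, so an interval that includes 1 does not show independence. In control, IGF2 was in 17.1% of cells with IGFBP7 and 9.29% without it, yet the quotient was 1.06 (0.98 to 1.15). Of the 45 pairs among the 10 genes in each library, the interval lay wholly off 1 for 2 besides IGFBP3 with IGF2. IGFBP5 and IGF2 were found together more often in control, in 551 cells against 497, a quotient of 1.11 (1.02 to 1.21), and the second thinning gave 1.10 (1.01 to 1.20). With the expected number computed within clusters, this quotient was 1.06 (0.98 to 1.15), an interval that includes 1. IGF2 and IGF2R after TGF-β1 were in 84 cells against 66.1, a quotient of 1.27 (1.01 to 1.57), which was 1.10 (0.87 to 1.39) with the second thinning and 0.89 (0.52 to 1.42) at 10000 UMIs, so that no stable difference was found for this pair. For IGFBP3 with IGFBP4 the quotient after TGF-β1 was 0.95 (0.89 to 1.00), from 1226 cells against 1295. It was 0.94 (0.88 to 0.99) with the second thinning, 0.90 (0.83 to 0.97) at 10000 UMIs and 0.96 (0.91 to 1.02) within clusters. Whether the interval, too wide for so common a gene, included 1 thus varied with the setting. IGFBP4 was in 69.1% of TGF-β1 cells with IGFBP3 and in 75.5% of those without it. IGFBP5, IGFBP6 and IGFBP7 were each in at least 92.7% of TGF-β1 cells, with as well as without IGFBP3.

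The genes most like each member were those with the highest r over the cells of a library. For IGFBP3 after TGF-β1 they were CRABP2 (0.22), which encodes a retinoic acid-binding protein, S100A4 (0.19), FBLN1 (0.19), TIMP3 (0.19) and LOXL2 (0.17). All 5 values are low. IGFBP2 was most like CCN5, a matricellular protein gene, in both libraries (0.30 in control, 0.31 after TGF-β1). IGFBP7 was most like MFGE8, the gene of the protein given to the group not analysed here, in both libraries (0.27 and 0.27). IGFBP6 was most like SPON2 in both as well (0.41 in control, 0.32 after TGF-β1).

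IGF1R had the closest partners. PRUNE2, FNDC3B, CACNA1C and CDC42BPA were among its 5 most alike genes in both libraries, with r from 0.39 to 0.44 in control and from 0.42 to 0.48 after TGF-β1. For IGFBP5, the most alike gene was the mitochondrial MT-CO3 in control (0.38) and the collagen gene COL12A1 after TGF-β1 (0.27). The r values of IGF2 and IGF2R with their most alike genes did not exceed 0.21 and 0.15. For IGF2 these genes were sought in control only, since it was under 10 CPM after TGF-β1.

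Around these 10 genes, 61 further genes of the axis were listed, of which 3 were not found by symbol, 21 had a mean under 10 CPM and 37 could be compared. Of the 37, 21 were higher and 16 lower after TGF-β1, where 51.4% of all genes were higher and 48.6% lower. A difference of more than 2-fold was found for 1, against 4.43% of all genes. That gene was ADAM12, a metalloprotease able to cleave IGFBP3 and IGFBP5, at 93.7 CPM in control and 225 CPM after TGF-β1 (log2 ratio 1.27, 1.24 to 1.29). Among the other proteases of binding proteins and their inhibitors, HTRA1 was at 288 and 457 CPM (log2 ratio 0.67) and the PAPPA inhibitor STC2 at 41.1 and 50.2 CPM (0.29), while ADAM9 (-0.43) and HTRA4 (-0.38) were lower. PAPPA itself, named here for its action on IGFBP4 and outside the naming rule, was at 69.8 and 74.0 CPM (0.08).

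**Figure D5:**
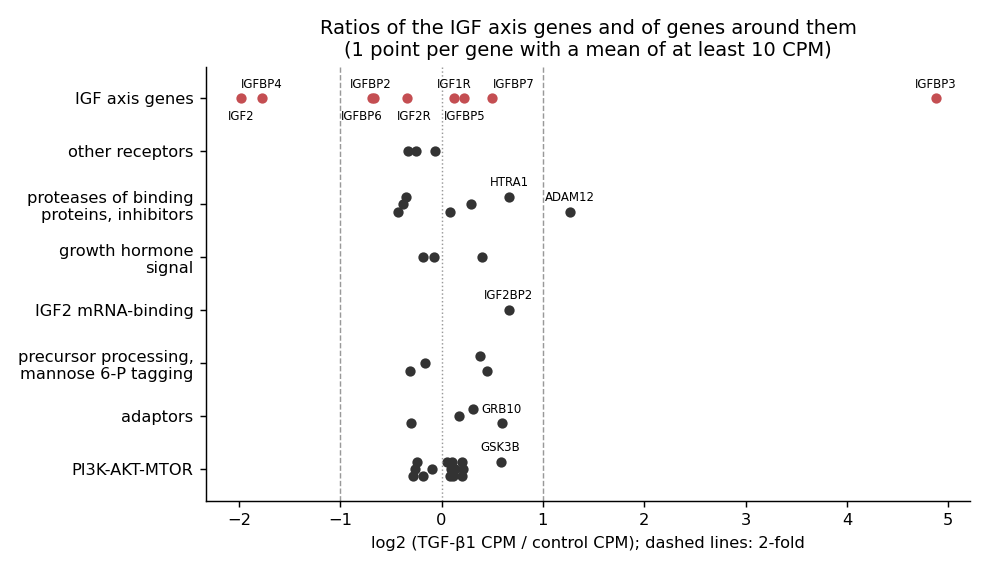
Log2 of the TGF-β1 CPM over the control CPM (horizontal axis) for the 9 IGF axis genes (red) and 37 genes around them (black), in rows by role. Each had 10 CPM or more on average. Dashed lines mark 2-fold. Of the 37, only ADAM12 lies beyond 2-fold, at 1.27.

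No gene of the other groups passed 2-fold. IGF2BP2, which encodes a protein that binds IGF2 mRNA, was at 43.1 CPM in control and 68.3 CPM after TGF-β1 (log2 ratio 0.66). The 3 other receptors compared were lower, as were 48.6% of all genes. They were TMEM219, an IGFBP3 receptor (-0.33), the small mannose 6-phosphate receptor M6PR (-0.25) and LRP1. LRP1, outside the naming rule, was only slightly lower, at -0.07. Of the adaptors that connect IGF1R to its signal, GRB10 (0.59) and GRB2 (0.32) were higher and SHC1 (-0.30) lower.

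Of 15 genes of the PI3K-AKT-MTOR cascade, which carries the signal of IGF1R onward, 10 were higher and 5 lower. Their median log2 ratio was 0.09, and of all genes 51.4% were higher and 48.6% lower. The kinase gene GSK3B (0.58) and RICTOR (0.21) had the highest ratios, and FOXO3 (-0.28) and PIK3R3 (-0.26) the lowest. Genes of precursor processing and mannose 6-phosphate tagging ran from FURIN (0.45) and GNPTAB (0.38) to GNPTG (-0.16) and NAGPA (-0.31). In the growth hormone group, STAT5B was at 0.40, SOCS2 at -0.07 and GHR, the growth hormone receptor, at -0.18. The binding protein gene IGFBP1, which lies beside IGFBP3 in the RefSeq annotation of the TB-T2T horse assembly, had 1 UMI in control and 0 after TGF-β1.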

How the data were processed

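The authors made the deposited UMI counts per gene and cell barcode with Cell Ranger against EquCab3.0. Version 7.1.0 is given in the submitters' processing notes and 8.0.1 in the file headers. Libraries were made with the 10x 3' v3.1 kit. The counts were whole numbers, not normalized, and restricted to barcodes called as cells. The study's doublet removal and assignment of mares rest on reads and were not repeated, so doublets remain.

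Cells were filtered as in the study (at least 20000 UMIs, at least 3500 genes, under 4% mitochondrial UMIs). For each library and cluster, the UMIs of its kept cells were added up and scaled to CPM. Log2 ratios are TGF-β1 over control without a pseudocount, with exact 95% binomial intervals, and none is given for 3 or fewer UMIs in both libraries, with any library at 0, or, within a cluster, for 3 or fewer UMIs in either library. Intervals of co-detection are exact Poisson intervals of the observed count. They take no account of the fixed number of cells with each gene, and are too wide where a gene is in most cells. Clusters were made in Seurat 5.3.0 and R 4.3.3 (2000 variable genes, 30 dimensions, canonical correlation integration, resolution 0.5) without the IGF axis genes. Other steps used Python 3.11.15, numpy 2.4.6, scipy 1.17.1 and pandas 2.3.3. Ratios and intervals were tested on counts drawn from Poisson distributions around the library totals. That simulation left out the spread between cells, so it does not show how well the intervals cover it.

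The text names the 10 members, pathway genes past 2-fold or the 2 largest in each direction per group, and the 5 genes most like a member, at a minimum of 10 CPM. Members and lists were chosen with earlier results of these data known. With 1 library per condition, no p-value is given. Depth was 210497250 control and 219731144 TGF-β1 UMIs. The alternatives were other cell filters, scalings, CPM minimums, a 1.5-fold limit, thinning depths and seeds, and cluster settings.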

Additional observations from a re-analysis of the deposited data

Results flagged for a closer look

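The barcodes that failed the filters on UMIs, genes or mitochondrial share, 519 in control and 611 after TGF-β1, entered none of the comparisons above, and IGFBP3 was higher than in control there as well. It was at 4.23 CPM in control, from 16 UMIs, and at 63.9 CPM after TGF-β1, from 285 UMIs, a log2 ratio of 3.92 (3.19 to 4.75). IGFBP4 and IGF2 were lower in these barcodes, with log2 ratios of -2.06 (-2.26 to -1.87) and -1.96 (-2.83 to -1.15).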

How the results depend on the processing

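The ratios of the 10 genes were recomputed under 9 alternatives each, and 10 for IGF1. Apart from IGF1, no gene changed its direction. IGFBP3 stayed between 4.82 and 4.90, IGFBP4 between -1.83 and -1.76 and IGF2 at -1.71 or lower, while IGFBP5 ran from 0.22 to 0.61. Between 2 and 3 genes passed 2-fold under every alternative except the 1.5-fold limit, where 5 of the 9 did. Over all genes, 970 passed 1.5-fold, 837 passed 2-fold at a minimum mean of 1 CPM, and 2251 did with no CPM minimum, compared with 339 in the main comparison. The median-of-ratios size factor set the median of all genes from 0.0082 to 0. The quotient of IGFBP3 with IGF2 ran from 0.61 to 0.80 after TGF-β1. In control it was 0.48 with a second thinning seed, from 15 cells with both, in place of 0.72 from 23. Of the 80 genes named as most like a member, 53 were named again when cells were thinned to 10000 UMIs. For IGFBP4 and IGF2R after TGF-β1, 1 of 5 was named again under the alternative that changed most, and for IGF2R in control 0 of 5. Members had the direction of the whole library in 52 of 57 pairs of gene and cluster, and in 98 of 103 at a resolution of 0.8. The whole library is made up of these same cells, so that agreement is partly built in. In the main clustering, IGF1 had the opposite direction in all 3 clusters where it had a ratio. Without integration the libraries separated, 1 cluster could be compared, and all 9 genes with a ratio there had the same direction. No paired analysis was possible because pairing by mare needs the genotypes in the reads, a step not repeated here. Depth limits IGF1, and the spread between mares and cultures is not in any interval.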

Other observations

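Cells of cluster 6, left out of the comparison of clusters for its 46 TGF-β1 cells, held more IGF2R than those of the other clusters, at 39.0 CPM in 102 control cells and 35.7 CPM after TGF-β1. IGF2R was found in 53.9% and 52.2% of its thinned cells. In the same cluster IGFBP3 stood at 4.45 CPM in control and 11.1 CPM after TGF-β1, in 5.88% and 13.0% of thinned cells. IGF1R was at 602 CPM in control and 712 CPM after TGF-β1 in the barcodes that failed the filters, above its level in the kept cells of each library.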
